A study of Mus musculus with 3 samples.

Results

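Chromatin bound by LSD1 (Kdm1a) on mouse chromosome X was compared between 2 of the study's 3 libraries. MidK came from fibroblast cultures that carried the reprogramming vector SeVdp(fKOSMaB) and had 30 nM Shield1 until day 20. LowK came from cells with the same vector at day 20 and 0 nM Shield1. The remaining library, MEF, came from mouse embryonic fibroblasts at day 0 with no vector named, and is given as a reference. Each group held 1 library, so every difference below is a difference between libraries, with no replicate check and no p-value. The cells were sampled in bulk, so fewer cells with bound LSD1 and less LSD1 per cell cannot be told apart. Input DNA was not analysed here, so read shares below describe coverage rather than enrichment over input. The labels call both day 20 samples reprogramming cells and give neither the cell types reached nor the strain that carries the variant base. Chromatin reads do not measure expression, so the labelled cell types could not be checked against marker genes.

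LSD1 is a histone demethylase that removes methyl groups from lysine 4 of histone H3, a mark of promoters and enhancers. It works with CoREST and histone deacetylases, and it is found at the start sites of many active genes as well as at silenced ones. SeVdp vectors are Sendai virus replicons that stay in the cytoplasm and express several reprogramming factors from 1 RNA. Shield1 is a small ligand that binds a destabilising domain and keeps the protein fused to it from being degraded. In the published vectors of this family the domain is fused to KLF4, a zinc finger factor that binds CACCC-type sequences, and less Shield1 leaves cells paused earlier in reprogramming. The labels do not name the fused factor. The comparison therefore asks what a higher level of the stabilised factor changes in the LSD1 reads of chromosome X at a fixed day.

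The data are lists of variant positions with the number of reads carrying the B6 base and the variant base. LowK listed 186844 single-base sites with 295254 reads, MidK 119257 sites with 203350 reads and MEF 411952 sites with 883097 reads. A single read covered 67.7% of LowK sites and 69.7% of MidK sites. Only 11270 sites stood in both day 20 lists, 6.03% of those of LowK and 9.45% of those of MidK, so most comparisons below sum different sites over the same region. Every listed site has at least 1 variant read. A region with no listed site therefore lacks variant reads in the list and is not shown to lack LSD1. The median window of 1 Mb held 1817 LowK and 1266 MidK reads, and counts are best read against that pair. Ratios are MidK over LowK. They are scaled to the median window unless library totals are named, and their exact 95% intervals cover counting error only. These intervals are too narrow, because 1 read can cover several listed sites.

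LSD1 reads lay closer to transcription start sites in LowK than in MidK. Within 1 kb of a RefSeq start site stood 3.62% of LowK reads (95% Clopper-Pearson interval 3.55% to 3.69%), 2.17% of MidK reads (2.11% to 2.24%) and 1.71% of MEF reads (1.68% to 1.74%). The MidK share was 0.60 times the LowK share (0.579 to 0.622). Within 250 bp of a start the shares were 1.41% in LowK, 0.758% in MidK and 0.494% in MEF, and the MidK to LowK ratio was 0.539 (0.508 to 0.572). Outside genes MidK held the larger share, 70.9% against 66.3% in LowK. Gene bodies farther than 1 kb from a start held 26.9% of MidK and 30.1% of LowK reads.

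The difference ran along the whole chromosome. When chromosome X was divided into 18 bins of 10 Mb, LowK had the larger share within 1 kb of a start in 18 of 18 bins, and the intervals were apart in 17 of them. MidK exceeded MEF in 12 of 18 bins, with intervals apart in 7. It was below MEF with intervals apart in the bins from 20000001 (1.40% against 1.92%), 70000001 (2.02% against 2.89%) and 170000001 (23.8% against 28.7%). The share was lower in MidK than in LowK among variant reads (1.94% against 3.27%) and among B6 reads (3.18% against 6.79%). It was also lower among sites with a single read, at 1.24% against 1.69% (ratio 0.733, 0.680 to 0.790). At the 11270 sites listed in both libraries, chosen by having reads in both, the shares were 7.78% in MidK and 8.77% in LowK, with a ratio of 0.887 (0.833 to 0.944). Leaving out the end of the chromosome from 170 Mb on, where Asmt holds many reads in MidK, gave a ratio of 0.512 (0.492 to 0.532). The MidK share was then 1.78%, near the MEF share of 1.71% with that end included.

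Read density fell off over the first 2 kb from the start in both day 20 libraries. In LowK it was 24.5 reads per 1000000 listed reads per kb within 250 bp, 17.2 from 250 to 500 bp, 11.97 from 500 bp to 1 kb and 7.87 from 1 to 2 kb. In MidK it was 13.2, 9.20, 8.58 and 5.63 over the same distances. In MEF it was 8.61, 8.19, 7.23 and 6.87. These values include Asmt and Cldn34d. Without their 1 Mb windows, density from 500 to 750 bp before the start was 5.22 in MidK and 6.93 in MEF. After the start it was 7.57 and 7.73 over the same distance. From 250 to 500 bp MidK had 5.42 before and 10.8 after the start, and MEF 8.50 and 7.69. From 2 to 5 kb density was 7.99 in LowK and 7.34 in MidK over all listed sites. It was 7.11 and 4.89 without the windows of Cldn34d and Asmt. Farther than 100 kb from any start the order over all listed sites turned, with 5.81 in MidK, 5.52 in MEF and 5.08 in LowK. Within 250 bp of start sites MidK therefore kept a peak that was lower than the LowK peak and higher than the shallow MEF one. Measured against each library's own flank at 2 to 5 kb, without the 1 Mb windows of Cldn34d and Asmt, density within 250 bp was 3.51-fold in LowK (3.39 to 3.64), 2.60-fold in MidK (2.45 to 2.75) and 1.28-fold in MEF (1.24 to 1.32). Counting 1 site per 300 bp once each, whatever its reads, gave 1.72-fold in LowK (1.57 to 1.87) and 1.5-fold in MidK (1.33 to 1.69), with intervals that overlap, and 1.07-fold in MEF. The depth of sites was alike: sites within 1 kb of a start had 2.39 reads each in LowK and 2.53 in MidK.

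**Figure D1:**
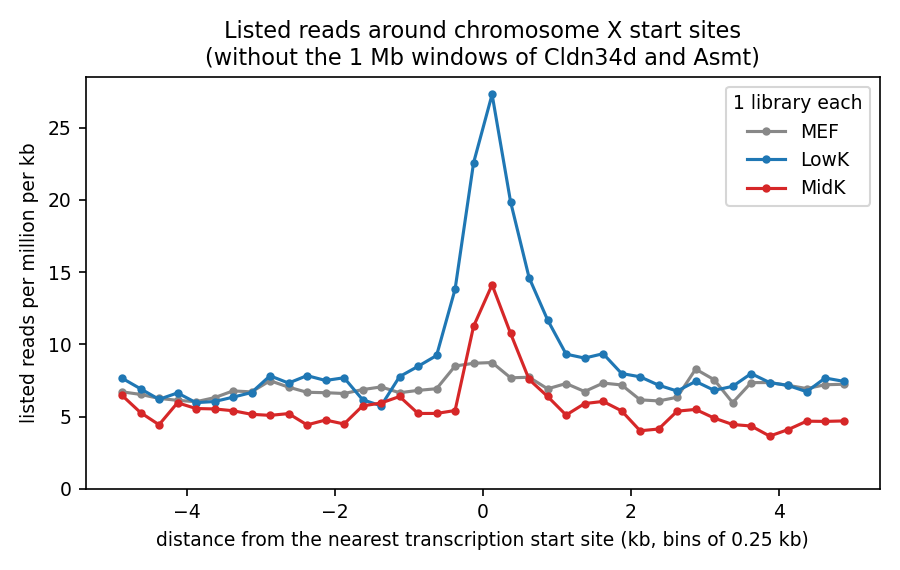
Density of listed LSD1 reads (reads per 1000000 listed reads per kb, vertical axis) by distance from the nearest transcription start site (kb, horizontal axis) in the MEF, LowK and MidK libraries, without the 1 Mb windows of Cldn34d and Asmt. The LowK line peaks highest at the start, the MidK line lies between LowK and MEF there, and 1 library stands behind each line.

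Promoter sequences on chromosome X range from CpG-poor to CpG islands, the GC-rich stretches at the starts of most widely used genes. The 1220 RefSeq promoter windows (GRCm38.p6, 250 bases before to 50 after the start) were split by their CpG count. With 20 or more CpG, 206 windows had 54.1 LowK and 34.8 MidK reads per 1000000 listed reads and start within 1 kb, a ratio by library totals of 0.643 (0.604 to 0.685). With 10 to 19 CpG, 264 windows had 38.7 and 16.4, a ratio of 0.425 (0.394 to 0.459). With 5 to 9 CpG the values were 26.8 and 9.47 without the start of Asmt, a ratio of 0.354 (0.321 to 0.390), and 32.5 and 24.97 with it. The 477 windows with at most 4 CpG had 12.5 and 7.11, a ratio of 0.570 (0.521 to 0.623). MidK was below LowK in each of these 4 classes.

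Single promoters differed in how much of the LowK signal MidK kept. The sequences of 4 CpG-rich promoters are printed to show both cases: Eif2s3x and Siah1b have no listed MidK site within 1 kb of the start, while Cldn34c1 and Ddx3x held scaled MidK counts near those of LowK. They were picked for having at least 15 CpG and after their values were seen. Each is the RefSeq promoter window of 300 bases, 5′ to 3′ on the gene's strand, with every CpG in capitals. Eif2s3x encodes a subunit of translation initiation factor eIF2 (chrX:94212602-94212901, minus strand, 21 CpG). Siah1b encodes a ubiquitin ligase (chrX:164076086-164076385, minus strand, 28 CpG). Cldn34c1 is a claudin-like gene of a multi-copy family, so its reads can come from another copy (chrX:123103273-123103572, plus strand, 28 CpG). Ddx3x encodes an RNA helicase (chrX:13280772-13281071, plus strand, 25 CpG).
Eif2s3x: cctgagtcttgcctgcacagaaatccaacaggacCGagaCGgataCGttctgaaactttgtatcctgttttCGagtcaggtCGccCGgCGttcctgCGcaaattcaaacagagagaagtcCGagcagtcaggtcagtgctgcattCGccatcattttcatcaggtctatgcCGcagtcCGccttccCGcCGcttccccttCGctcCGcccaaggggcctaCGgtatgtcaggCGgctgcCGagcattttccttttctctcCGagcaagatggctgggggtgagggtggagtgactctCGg
Siah1b: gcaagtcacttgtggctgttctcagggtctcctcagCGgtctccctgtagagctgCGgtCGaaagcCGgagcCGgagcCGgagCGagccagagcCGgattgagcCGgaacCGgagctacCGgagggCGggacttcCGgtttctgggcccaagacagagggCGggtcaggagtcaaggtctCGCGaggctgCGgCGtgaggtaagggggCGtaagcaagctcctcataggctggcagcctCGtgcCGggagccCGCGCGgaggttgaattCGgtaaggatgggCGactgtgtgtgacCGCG
Cldn34c1: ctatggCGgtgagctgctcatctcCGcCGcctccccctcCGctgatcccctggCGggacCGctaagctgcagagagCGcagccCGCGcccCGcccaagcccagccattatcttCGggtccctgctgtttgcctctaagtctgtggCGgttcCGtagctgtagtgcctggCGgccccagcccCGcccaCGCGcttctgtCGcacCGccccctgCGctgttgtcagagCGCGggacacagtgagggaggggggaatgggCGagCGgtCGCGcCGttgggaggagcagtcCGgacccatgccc
Ddx3x: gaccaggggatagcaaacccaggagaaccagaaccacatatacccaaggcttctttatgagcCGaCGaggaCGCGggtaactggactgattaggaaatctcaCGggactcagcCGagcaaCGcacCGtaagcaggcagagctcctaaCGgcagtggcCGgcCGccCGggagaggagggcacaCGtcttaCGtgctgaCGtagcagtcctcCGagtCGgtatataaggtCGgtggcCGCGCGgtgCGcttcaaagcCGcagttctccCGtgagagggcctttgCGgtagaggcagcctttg

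In reads within 1 kb of the start, Eif2s3x had 62 in LowK, 0 in MidK and 31 in MEF. Siah1b had 46, 0 and 43. Cldn34c1 had 172 in LowK, 123 in MidK and 104 in MEF, a ratio of 1.03 (0.808 to 1.30). Ddx3x had 70, 47 and 59, a ratio of 0.964 (0.651 to 1.41). The letters CACCC, searched on both strands, were found in 56.3% of the 1220 windows. They were present in the Eif2s3x window and absent from the other 3, which is a description of these windows only.

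Start sites within 1 kb of each other were merged into 1054 promoter regions, of which 82 had at least 30 reads in LowK or in MidK. A region was called where its scaled counts lay 2-fold or more apart and their exact 95% Poisson intervals were separate. By this rule 50 regions were lower in MidK (61.0% of those tested) and 3 were higher (3.66%). Library totals gave 49 lower (59.8%) and 3 higher (3.66%). Scaled instead to the median promoter region, 14 were lower and 22 higher, a scaling that centres the tested regions on themselves. With 1 site per 300 bp only 1 region could be tested. The 82 regions entered mostly through LowK, since 79 had at least 30 LowK reads and 13 had at least 30 MidK reads, and this selection favours lower calls. Regions were therefore also chosen by MEF reads alone. Of 115 regions with at least 30 MEF reads, the MidK share was below the LowK share in 88 and above it in 22. The median log2 ratio was -1.23 by library totals. Against the MEF share, MidK was above in 30 of the 115 and LowK in 72, a comparison in which choice by MEF reads favours MEF. The letters CACCC stood in a promoter window of 76% of the lower regions, 65.5% of the 29 regions not called, 72.0% of the 82 tested and 57.1% of all 1054.

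The lower regions with the most LowK reads belonged to genes of varied roles. Luzp4, a leucine zipper gene, had 72 reads in LowK, 2 in MidK and 40 in MEF, a ratio of 0.0399 (0.00474 to 0.149). Kdm6a, the H3K27 demethylase that escapes X inactivation, had 54, 11 and 28, a ratio of 0.292 (0.138 to 0.566). The shared region of Ofd1, a centriole protein, and Trappc2, a trafficking protein, had 55, 3 and 29, a ratio of 0.0783 (0.0157 to 0.241). Per 10000 listed reads these 3 regions held 2.44, 1.83 and 1.86 in LowK, 0.0984, 0.541 and 0.148 in MidK, and 0.453, 0.317 and 0.328 in MEF. Their choice by LowK reads among lower regions fixes that order between LowK and MidK. Rhox2g, a germline homeobox gene of a multi-copy cluster, had 49 in LowK, 1 in MidK and 23 in MEF. The region of Srpx, a secreted protein of connective tissue, had 49, 3 and 17. Rab9b, a small GTPase, had 58, 12 and 28.

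The remaining lower regions chosen by read number were Gm39521 (60 reads in LowK and 3 in MidK), Ctag2l2 (51 and 3), Gm14812 (48 and 8), the region of Hccs and Gm15246 (51 and 16) and that of Morf4l2 and BC065397 (47 and 11). Their ratios ran from 0.0718 at Gm39521 to 0.450 at Hccs. Besides Eif2s3x and Siah1b, 6 tested regions had no listed MidK site. They were Maoa, a monoamine oxidase (41 LowK reads), Prps1 (44) and Prps2 (35), both phosphoribosyl pyrophosphate synthetases, Ids, a lysosomal sulfatase (32), Gpr101, an orphan receptor (37), and Magea8, a germline antigen (38). All 8 such regions were named after their values were seen.

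The 29 regions not called had ratios from 0.431 to 1.77, with 21 below 1 and 8 above and a median log2 ratio of -0.24. Those named here are the ones with the most MidK reads, which favours high ratios, while the lowest was Fam50a with 30 reads in LowK and 9 in MidK. Hprt, the purine salvage enzyme, had 65 reads in LowK, 42 in MidK and 53 in MEF, a ratio of 0.927 (0.614 to 1.39). The Fmr1 region, whose gene encodes an RNA-binding protein of neurons, had 41, 34 and 46, a ratio of 1.19 (0.733 to 1.92). Cited1, a transcriptional coactivator, shares a region with Gm14858 that had 52, 47 and 38, a ratio of 1.30 (0.855 to 1.96). At these starts MidK and LowK did not differ by the rule, with intervals that still allow sizeable changes either way. Yipf6, Il13ra1 and Taf7l were also not called, with ratios of 1.51, 1.16 and 0.803.

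The 3 regions higher in MidK were Asmt, Elf4 and Bclaf3. Asmt, the last enzyme of melatonin synthesis, lies in the pseudoautosomal region at the end of the chromosome and had 472 reads in LowK, 862 in MidK and 346 in MEF, a ratio of 2.62 (2.34 to 2.94). These reads lay at 19 LowK and 24 MidK sites. Asmt was also the 1 region that could be tested with 1 site per 300 bp. There it had 73 and 86 reads, a ratio of 1.46 (1.06 to 2.02), and was not called. Elf4, an ETS factor of blood cells, had 23, 35 and 61, a ratio of 2.18 (1.25 to 3.87). Bclaf3 had 22, 35 and 20, a ratio of 2.28 (1.30 to 4.09). Elf4 and Bclaf3 each rest on 35 MidK reads, close to the minimum of 30.

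**Figure D2:**
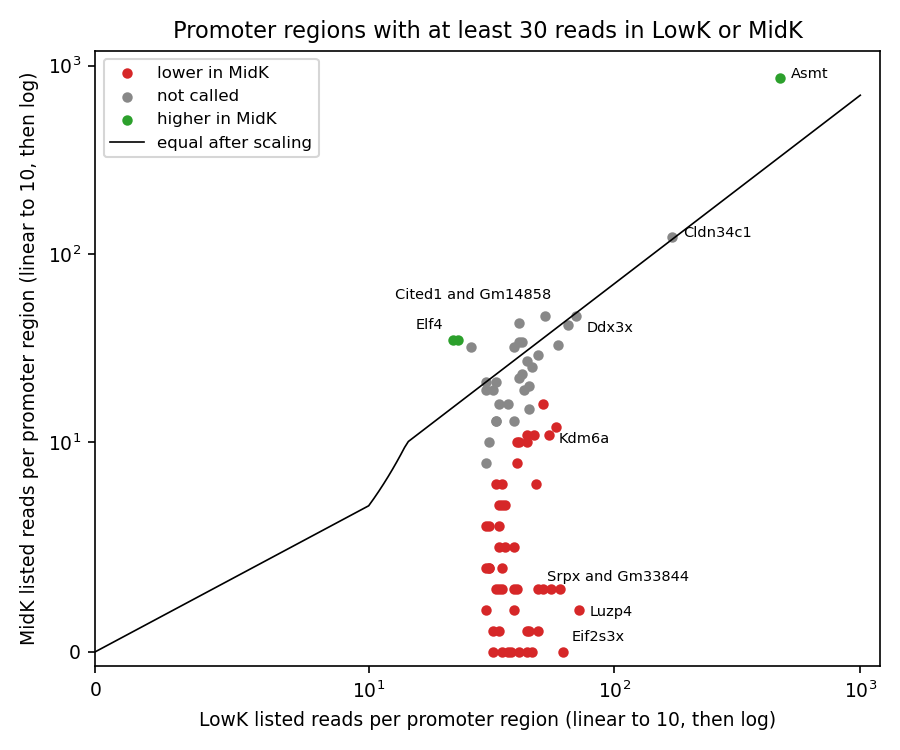
Listed LSD1 reads within 1 kb of the start in LowK (horizontal axis) and MidK (vertical axis) for the 82 tested promoter regions, with both axes linear up to 10 reads and logarithmic above, and the line marking equal counts after scaling to the median 1 Mb window (it bends where the axes change scale). The 50 red regions, lower in MidK, lie below the line, Eif2s3x among those at 0 in MidK, and Asmt and Elf4 lie above it.

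The difference also followed gene density over windows of 1 Mb. The median log2 ratio was 0.20 in the 16 windows with no protein-coding gene, 0.19 in 42 windows with 1 or 2 genes and 0.06 in 43 windows with 3 to 5 genes. It was -0.14 in 39 windows with 6 to 10 genes, -0.39 in 17 windows with 11 to 20 and -0.59 in 7 windows with 21 to 38. All 7 of these densest windows were below 0, as were 14 of the 17 in the class before them, against 2 of the 16 windows without a gene. Across the 164 windows Spearman's rho was -0.53 and Pearson's r -0.45, as a description only, since all windows come from the same 2 libraries. Dropping every site within 5 kb of a start left the order in place, with medians of 0.20 in windows without a gene and -0.53 in the densest class. The lower MidK coverage of gene-rich windows was therefore present away from start sites too.

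**Figure D3:**
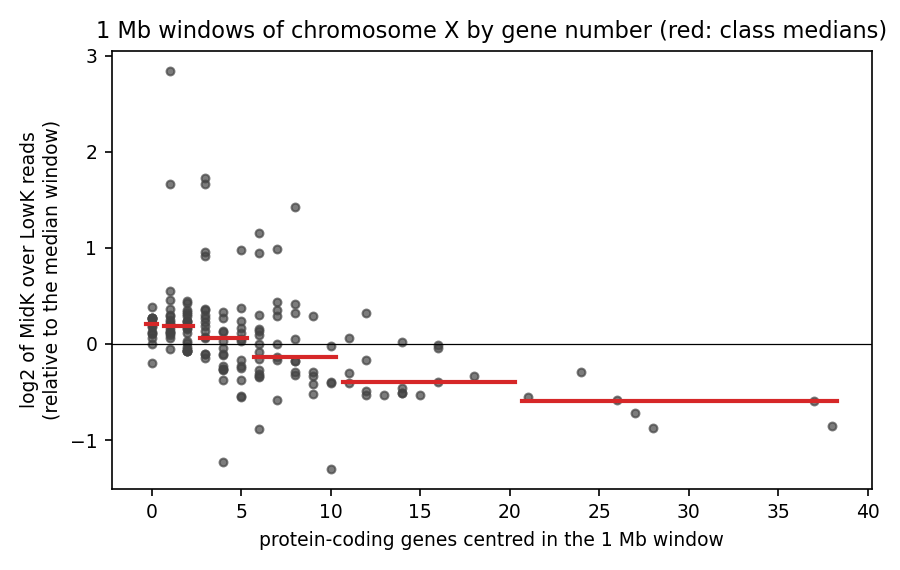
Log2 ratio of MidK over LowK listed reads per 1 Mb window of chromosome X (vertical axis, relative to the median window) by the number of protein-coding genes centred in the window (horizontal axis), with each window as a point and red bars for class medians. The medians go from 0.20 in windows with no gene to -0.59 in windows with 21 to 38 genes.

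Of the 164 windows of 1 Mb, 2 were lower in MidK (1.22%) and 6 were higher (3.66%). Library totals gave 2 lower (1.22%) and 7 higher (4.27%). The window at X:11000001-12000000 had 3625 reads in LowK, 1026 in MidK and 7207 in MEF, a ratio of 0.406 (0.379 to 0.435). It holds the H2al1 cluster of testis-specific histone H2A variants. The window at X:99000001-100000000 had 3683, 1097 and 7082, a ratio of 0.427 (0.399 to 0.457), and holds Stard8, Efnb1, Pja1, Tmem28 and Eda. Both windows were above the LowK median and below the MidK median.

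The 6 higher windows were mostly poor in reads and rich in amplified gene families, whose reads can come from other copies. X:29000001-30000000 had 14 reads in LowK, 70 in MidK and 112 in MEF, a ratio of 7.18 (4.01 to 13.8). X:25000001-26000000 had 63, 145 and 86, a ratio of 3.30 (2.44 to 4.51). The windows from 33000001 and 34000001, with the Btbd35f genes, had 118 and 70 reads in LowK and 221 and 155 in MidK, ratios of 2.69 and 3.18. The window from 149000001, with Ott, had 38 in LowK and 59 in MidK, a ratio of 2.23. All but the Asmt window stood far below the median window in both libraries. The Asmt window at X:170000001-171000000 had 1646 reads in LowK, 3627 in MidK and 1207 in MEF, a ratio of 3.16 (2.98 to 3.35).

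At 100 kb, 74 of 1503 tested windows were lower in MidK (4.92%) and 45 were higher (2.99%). Library totals gave 72 lower (4.79%) and 46 higher (3.06%), and 1 site per 300 bp gave 47 lower (3.2%) and 18 higher (1.22%) of 1470. Neighbouring called windows formed 8 lower and 4 higher runs. The longest run covered 12 windows at X:11100001-12300000, from the H2al1 genes to Bcor, which encodes a corepressor of the PRC1.1 complex. It had 4927 reads in LowK, 1301 in MidK and 8959 in MEF, a ratio of 0.380 (0.357 to 0.404). Per window this was 13.9 reads per 10000 in LowK, 8.45 in MEF and 5.33 in MidK, against chromosome medians of 6.23, 6.62 and 6.29. LowK was thus above its median over the run and MidK below its own, with MEF between them.

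The next run covered 6 windows at X:99000001-99600000 with Stard8, a RhoGAP, Efnb1, a membrane ligand of Eph receptors, and Pja1, a ubiquitin ligase. It had 2688 reads in LowK, 557 in MidK and 4659 in MEF, a ratio of 0.298 (0.271 to 0.326). Its per-window levels were 15.2 per 10000 in LowK, 8.79 in MEF and 4.57 in MidK. A further run of 3 windows at X:7600001-7900000 holds 16 coding genes, among them Plp2, Magix, Wdr45, Praf2, Tfe3 and Pim2, and had 1562 reads in LowK, 423 in MidK and 2488 in MEF, a ratio of 0.389 (0.349 to 0.434). Here MidK, at 6.93 per 10000 per window, stood near its chromosome median, while LowK reached 17.6. The other 5 lower runs had ratios from 0.377 at Nhsl2 to 0.495 at Ctag2l2. Of the higher runs, 3 windows at X:170600001-170900000 with Asmt had 1133 reads in LowK, 3028 in MidK and 996 in MEF, a ratio of 3.84 (3.59 to 4.12), and the other 3, of 2 windows each and starting at 33000001, 33800001 and 34300001, had 31 to 58 LowK and 86 to 112 MidK reads. All 12, 6 and 3 windows of the first 3 runs were called with every listed site, and 11, 6 and 3 of them also with 1 site per 300 bp. In the other lower runs that setting kept 2 of 2 windows from 74200001 and from 101800001. It kept 2 of 4 from 72900001 and 0 of 2 from 56500001 and from 74600001. Among the higher runs it kept 2 of 3 at Asmt and 1 of 2 in each of the others.

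Single lower windows of 100 kb with the smallest ratios included X:102700001-102800000, with the Dmrtc1 genes, at 285 reads in LowK and 43 in MidK (0.217). The Pja1 window from 99400001 had 436 and 69 (0.227). The Luzp4 window from 148800001 had 74 and 12 (0.233), and the Xlr window from 73200001 had 153 and 25 (0.235). With 1 site per 300 bp the Luzp4 window had 10 and 7 reads, too few to be called. The windows from 99500001, 99000001, 142800001 and 11300001 had ratios from 0.248 to 0.284. Higher windows with the largest ratios were again sparse in LowK. Those from 3800001 and 148900001 were listed at 0 in LowK and had 31 and 35 reads in MidK. The window from 148900001 also overlaps Luzp4, so this gene touches neighbouring windows called in opposite directions. The windows from 5200001, 25700001, 123200001, 123700001 and 29600001 had 3 to 12 LowK reads and 38 to 69 MidK reads. An exception was the window from 170800001, next to Asmt, with 204 in LowK, 1620 in MidK and 353 in MEF, a ratio of 11.4 (9.86 to 13.3).

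**Figure D4:**
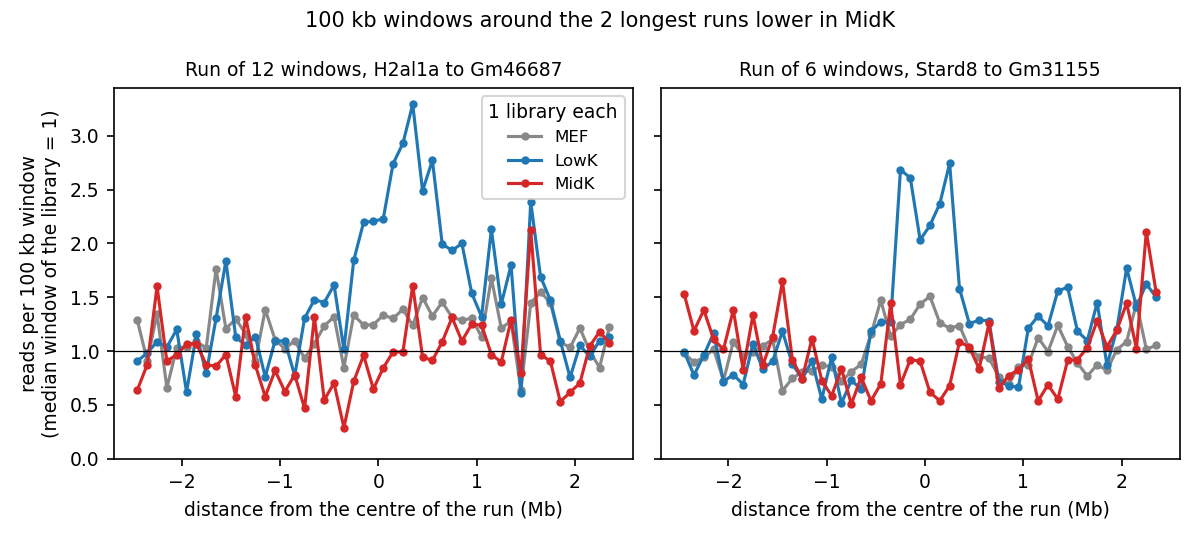
Listed LSD1 reads per 100 kb window relative to each library's median window (vertical axis) by distance from the centre of the run (Mb, horizontal axis) for the runs of 12 windows (left) and 6 windows (right) in MEF, LowK and MidK, with 1 library per line. LowK rises above MEF inside both runs, MidK lies mostly below MEF there, and the lines lie closer together outside.

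Gene by gene, reads were summed over the gene body and 5 kb on either side, so close neighbours share reads. Of 906 genes that reached 30 reads in LowK or MidK, 105 were lower in MidK (11.6%) and 82 were higher (9.05%) when scaled to the median gene. The median gene itself was lower in MidK, with a log2 ratio of -0.56 by library totals. On library totals 264 genes were lower (29.1%) and 24 were higher (2.65%), so the split between the directions depends on the scale. Calls made again with 1 site per 300 bp, which limits repeated counting of a read, left 29 lower (5.12%) and 13 higher (2.30%) of 566 genes. Of these, 22 lower and 8 higher genes were also called with every site, and they are the genes described next. Their ratios are those with every site, relative to the median gene.

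Several of the lower genes were close neighbours. Smc1a (X:152016428-152061973), a cohesin subunit, had 118 reads in LowK, 16 in MidK and 402 in MEF, a ratio of 0.292 (0.162 to 0.495). Its neighbours Ribc1, a ciliary protein, and Gm39540, a noncoding RNA gene, had 84 and 72 reads in LowK and 8 and 5 in MidK, and share some of these reads. G6pdx (X:74409483-74428880), the first enzyme of the pentose phosphate pathway, had 108 in LowK, 18 in MidK and 160 in MEF, a ratio of 0.359 (0.205 to 0.595). Ssr4, a subunit of the translocon-associated complex at the endoplasmic reticulum, had 78, 8 and 85, a ratio of 0.221 (0.0922 to 0.458). These genes were named for being called lower, so their separate counting intervals follow from that choice. Gm32261 had 75 reads in LowK and 9 in MidK, and Xlr5c, of the multi-copy Xlr family expressed in lymphocytes and germ cells, had 103 and 13.

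Around X:7600001-7900000, Wdr45, an autophagy gene, had 149 reads in LowK, 19 in MidK and 153 in MEF, a ratio of 0.275 (0.161 to 0.445). Praf2, a membrane trafficking protein, had 111, 17 and 96, a ratio of 0.330 (0.186 to 0.553). Plp2, a membrane protein on the fibroblast list, had 72, 9 and 87, a ratio of 0.269 (0.118 to 0.541). In the run that begins at Stard8, Pja1 (X:99465734-99471268) had 92 in LowK, 11 in MidK and 141 in MEF, a ratio of 0.258 (0.124 to 0.483). Its noncoding neighbours Gm14812 and Gm31155 had 230 and 99 in LowK and 35 and 14 in MidK. Gm34301, next to Bcor, had 150, 20 and 89, a ratio of 0.287 (0.171 to 0.460). Gm53059 had 84 in LowK and 11 in MidK. Each of these genes except Gm53059 lies inside 1 of the runs described above.

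The 8 higher genes were scattered along the chromosome. Cldn34d, of a multi-copy claudin family, had 1634 reads in LowK, 3131 in MidK and 3885 in MEF, a ratio of 4.13 (3.89 to 4.39). Zfp711, a zinc finger activator, had 45, 71 and 206, a ratio of 3.40 (2.31 to 5.06). Its neighbour Pof1b, an actin-binding protein of epithelia, had 59, 70 and 373, a ratio of 2.56 (1.78 to 3.68). Vsig4, a complement receptor of macrophages, had 90, 99 and 208, a ratio of 2.37 (1.76 to 3.19). Rab9, a small GTPase of late endosomes, had 68, 65 and 261, a ratio of 2.06 (1.44 to 2.94). Their raw counts in MidK were near or above those in LowK although the library is smaller. Gm33784 had 30 in LowK and 63 in MidK (4.53), Gm4907 had 70 and 82 (2.53) and Gm15245 had 59 and 55 (2.01). By library totals, Cldn34d, Zfp711 and Gm33784 passed the rule as well, and the other 5 did not.

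Genes grouped by role were counted against those backgrounds, 9.05% higher and 11.6% lower. Of 19 ubiquitin pathway genes, 7 were higher and 2 lower, with a median log2 ratio of 0.76 against 0.01 over all genes. The deubiquitinases Usp51, Usp27x, Usp11 and Usp26 had 17, 31, 75 and 71 reads in LowK and 38, 33, 77 and 69 in MidK. The ligase genes Mid1, Klhl15 and Klhl13 had 803, 94 and 202 in LowK and 1080, 118 and 194 in MidK. By library totals only Usp51 of these 7 passed the rule, 4 members were lower, and none was called with 1 site per 300 bp. Otud6a, another deubiquitinase, had 51 reads in LowK and 2 in MidK, and the ligase gene Rnf113a1 had 39 and 4. Usp9x, a deubiquitinase with many reads, had 190 and 158 and was not called.

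Of 15 tested pluripotency and germline genes, 4 were lower and 1 was higher, against 11.6% lower and 9.05% higher over all genes. The median log2 ratio of the list was 0.013, against 0.012 over all genes. Tfe3, a factor whose exit from the nucleus accompanies the loss of pluripotency, had 124 reads in LowK, 22 in MidK and 160 in MEF, a ratio of 0.382 (0.231 to 0.605). Eras, a RAS-like protein of embryonic stem cells, had 133, 20 and 110, a ratio of 0.324 (0.192 to 0.521). Sox3, a SOXB1 factor, had 76, 6 and 86, a ratio of 0.170 (0.0606 to 0.388). Per 10000 listed reads, Tfe3, Eras and Sox3 held 4.20, 4.50 and 2.57 in LowK, 1.08, 0.984 and 0.295 in MidK, and 1.81, 1.25 and 0.974 in MEF. Their choice as lower genes fixes the order of LowK and MidK. The germline antigen gene Magea4 had 56, 7 and 123. Trap1a was higher, with 54, 55 and 72, a ratio of 2.20 (1.48 to 3.26). The longest members, Tex11, Klf8 and Zfx, were not called, with 427, 384 and 216 reads in LowK and 294, 227 and 116 in MidK. Tfe3 was lower with 1 site per 300 bp too, and the other 4 called members were not. Nr0b1 had too few reads.

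Of 23 metabolic and housekeeping genes, 4 were lower and none higher: G6pdx and Ssr4 as above, Idh3g, a subunit of mitochondrial isocitrate dehydrogenase, with 66 reads in LowK and 7 in MidK, and Ndufa1, a complex I subunit, with 49 and 4. The long genes Phka1, Phka2 and Acsl4 were not called, with ratios of 1.62, 1.10 and 1.40. Of 15 tested fibroblast and matrix genes, Plp2 and Tmsb4x, an actin-sequestering peptide gene (39 and 2), were lower and none was higher. Col4a6, Gpc3 and Col4a5, genes of basement membrane and proteoglycan, had 606, 533 and 342 reads in LowK and 344, 271 and 314 in MidK, with no call. Counts of 4 of 23 and 2 of 15 stand near the share over all genes.

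Among 23 LSD1 partners and chromatin regulators, Smc1a was lower and Taf1, the largest subunit of TFIID, was higher, with 185 reads in LowK, 188 in MidK and 473 in MEF (ratio 2.19, 1.78 to 2.70). Bcor had 735, 242 and 1105, a ratio of 0.710 (0.611 to 0.822), Hdac8 had 416 and 208, and Bcorl1 had 329 and 88 (0.577), with no call relative to the median gene. Bcor and Bcorl1 were lower by library totals. Of 11 genes listed as escaping X inactivation, Mid1, at the pseudoautosomal end of the chromosome, was higher and none lower. The 100 kb window from 169900001, with the end of Mid1, had 475 LowK and 890 MidK reads, against 803 and 1080 over the gene. By library totals or with 1 site per 300 bp Mid1 was not called. The escape genes 4933407K13Rik and Shroom4 were not called, with ratios of 0.530 and 1.10. Kdm6a and Eif2s3x, whose promoter regions were lower in MidK, were not called over the gene. Kdm6a had 171 reads in LowK and 86 in MidK (1.08), and Eif2s3x 182 and 78 (0.924). With 1 site per 300 bp their promoter regions held 19 and 13 LowK reads, and 5 and 0 MidK reads. In the X-inactivation centre none of 10 tested genes was called relative to the median gene: Ftx and Tsix, the antisense repressor of Xist, had 209 and 168 reads in LowK and 111 and 102 in MidK. None of 12 neural genes was called, the longest being Il1rapl1 with 1813 and 1386. Of 12 immune genes, P2ry10 was higher, with 12 and 33 reads, and Cxcr3 lower, with 66 and 12. These shares were near or under the background. By library totals, where 29.1% of all genes were lower, the lower members numbered 3 of 10 in the X-inactivation centre, 2 of 11 escape genes, 7 of 23 chromatin regulators, 5 of 23 metabolic, 5 of 15 fibroblast, 6 of 15 pluripotency, 4 of 12 neural and 2 of 12 immune genes.

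The alleles also differed. B6 reads made up 18.9% of MidK reads, 9.85% of LowK reads and 14.2% of MEF reads. Across 162 windows of 1 Mb with at least 50 reads in both libraries, the median B6 share was 17.6% in MidK and 8.83% in LowK, with 13.7% in MEF. MidK was above LowK in 158 of 162 windows, with exact intervals apart in 144. It was above by at least 10 percentage points with intervals apart in 46 (28.4%) and below by that size in 0 (0.0%). The higher B6 share of MidK was spread along the chromosome. Within 1 kb of a start the B6 share was 27.6% in MidK and 18.5% in LowK, against 18.7% and 9.52% farther away. The Asmt start alone held 862 of these MidK reads, 49.5% of them B6, and 472 of the LowK reads, 56.6% B6. From 2 to 5 kb the B6 shares were 27.4% in MidK and 15.5% in LowK. They were 18.8% and 10.0% from 1 to 2 kb, and 17.8% and 9.23% from 5 to 10 kb. Of the 8898 MidK reads from 2 to 5 kb, 5652 remained without the 1 Mb windows of Cldn34d and Asmt. Over Cldn34d and its flanks 51.4% of 3131 MidK reads were B6, so the 2 to 5 kb shares depend on such loci.

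Because each site must hold a variant read to be listed, these shares depend on which sites were listed, and sites in common were compared as well. At 122 sites with at least 5 reads in each library and a B6 read in 1 of them, the variant base had 60.6% of 1605 LowK reads and 60.6% of 2312 MidK reads, a difference of 0.0794 percentage points (-3.06 to 3.23). The value rests on the deepest sites: without the deepest 1% of sites, 39 sites were left and the difference was -10.1 points (-19.4 to -0.56). Sites of 5 to 20 reads that held at least 2 reads of each allele were examined next. The variant base was the more frequent at 45.3% of 1827 such LowK sites (43.0% to 47.6%) and 23.3% of 3057 MidK sites (21.8% to 24.8%). The difference of -22.0 points (-24.7 to -19.2) was present near start sites and away from them. Within 1 kb of a start it was the more frequent at 56.6% of 152 LowK and 40.2% of 82 MidK sites, with intervals of 48.3% to 64.6% and 29.6% to 51.7% that overlap, and farther away at 44.2% and 22.8%.

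**Figure D5:**
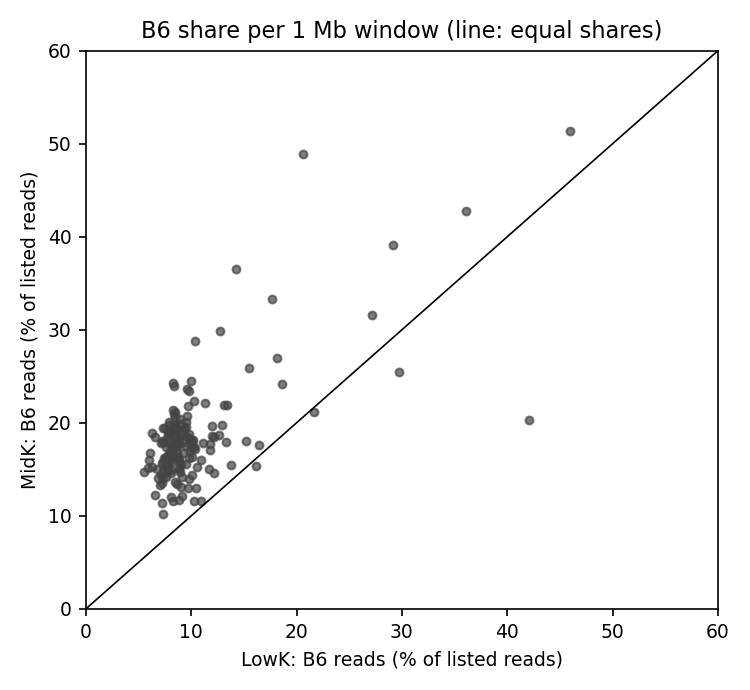
Share of B6 reads among listed reads (percent) in LowK (horizontal axis) and MidK (vertical axis), with each of 162 windows of 1 Mb as a point and a line of equal shares. MidK lies above the line in 158 windows, most of them near the medians of 8.83% in LowK and 17.6% in MidK.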

How the data were processed

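LSD1 chromatin was sequenced from 3 mouse libraries, and the lists used here cover chromosome X. Per the submitters' processing notes, the aligner was BWA and the genome mm10. Variants were called with bcftools mpileup, per the labels. The sources used here give no versions, filters or treatment of duplicates. Each site has deposited counts of reads with the B6 and with the variant base, per the file headers. A deposited reliability score was used in 1 alternative with a minimum of 20. In the MidK list the header of that score names no sample of the study, so it may not belong to this library. Entries other than single bases (6.13% of LowK and 5.56% of MidK) were dropped. Genes, start sites and promoter sequences came from RefSeq tables of GRCm38.p6, the same build as mm10, and 1 listed gene in each of the X-inactivation centre and escape lists was not found.

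With 1 library per group no test was run. Reads were summed per window, per gene with 5 kb on each side, and per promoter region (1 kb either side of a start). Features that reached 30 reads in LowK or MidK were scaled to the median window or gene, and promoter regions to the median 1 Mb window. A difference was called at 2-fold or more with exact 95% Poisson intervals apart. Ratio intervals are conditional Clopper-Pearson. Genes were named where called the same way with all sites and with 1 site per 300 bp (at most 15 a direction). Windows were named by ratio (6 of 1 Mb and 8 of 100 kb a direction), and list members where called or among the 3 with most reads, of which 1 is not reported here. Members and lists were chosen with earlier results of these data known, and the promoter, start site and gene density analyses were added after seeing the data. Python 3.11.15, numpy 2.4.6, pandas 2.3.3, scipy 1.17.1 and matplotlib 3.10.9 were used.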

Additional observations from a re-analysis of the deposited data

How the results depend on the processing

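With 1 library a side nothing could be left out, and reads counted at several sites, listing by variant reads and low depth limit every call. No paired analysis was possible because each group holds 1 library and no fit was made. Counts are given as higher and lower in MidK. For 1 Mb windows (6 and 2), counting 1 site per 300 bp once each gave 1 and 0, sites listed in both libraries 1 and 0, reliability of at least 20 gave 10 and 6, and B6 reads gave 12 lower. For 100 kb windows (45 and 74), 1 site per 300 bp gave 18 and 47, counted once 2 and 7, sites in both 8 and 3, reliability of at least 20 gave 165 and 219, without the deepest 1% of sites 29 higher, variant reads 26 higher, at least 100 reads 22 higher, and B6 reads 114 lower. For genes (82 and 105), library totals gave 24 and 264, 1 site per 300 bp 13 and 29, counted once 0 and 1, sites in both 6 and 2, B6 reads 18 and 26, at least 100 reads 9 and 51, variant reads 43 higher and gene bodies alone 49 higher. For promoter regions (3 and 50), scaling to the median promoter region gave 22 and 14, at least 100 reads 1 and 0 of 2 tested, variant reads 1 and 24 of 46, B6 reads 0 and 2 of 3, sites in both 0 and 0 of 5, 1 site per 300 bp 0 and 0 of 1, without the deepest 1% of sites 15 lower of 36, and reliability of at least 20 gave 25 lower of 56. Fewer features were tested where sites or reads were dropped, and the causes of the other shifts were not tested. The MidK to LowK ratio of reads within 1 kb of a start (0.60) was below 1 in each of these: 0.539 within 250 bp, 0.636 within 2 kb, 0.685 with sites counted once, 0.887 at sites in both, 0.823 at sites that MEF lists, 0.469 for B6 reads, 0.733 at single-read sites, 0.517 without the windows of Cldn34d and Asmt and 0.512 without those from 170 Mb on. The difference in variant share at sites in both lists was -10.1 points without the deepest 1% and 3.51 with at least 8 reads. The difference in variant majority was -26.6 points with at least 8 reads and -16.6 at sites that MEF lists. Directions turned, as log2 ratios, at sites in both lists for Ribc1, Smc1a and Xlr5c (0.12 each), Plp2 (1.12), Gm4907 (-1.97), Gm15245 (-0.25), the 100 kb windows from 73200001 (0.54) and 142800001 (0.13) and the region of Hccs and Gm15246 (1.0), where 2 to 21 reads remained. They also turned with B6 reads for the windows from 149000001 (-0.068) and 123200001 (-0.17), with sites counted once for the window from 148800001 (0.86), Gm39521 (0.44) and Elf4 (-0.14), and with the median promoter region for Hccs (0.53) and Morf4l2 (0.10). Xkrx, with 167 reads in LowK and 196 in MidK, was called higher with every site and lower with 1 site per 300 bp, and was not described for that reason.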
